A study of Mus musculus with 9 samples.

Results

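The 32 genes described here mark endothelial cells, the cells that line blood and lymphatic vessels. They were followed in brown adipose tissue of male C57Bl/6J mice made obese by diet. They were chosen by name, as genes of endothelial junctions, receptors, enzymes and transcription factors, with the VEGF receptors left out. All 32 were found among the 49315 genes of the count files, and all 32 passed the filter on low counts that left 14747 genes for testing. Cotadutide, a peptide that activates the receptors of glucagon-like peptide 1 and of glucagon, was injected under the skin daily for 28 days into 5 mice. The other 4 mice were injected with vehicle. All 9 mice were fed a 60% high fat diet until they weighed about 50 g, entered at 14 weeks of age, were housed singly and were not kept at thermoneutrality. Each mouse gave 1 library of polyadenylated RNA, so the comparison asks what the drug did to the endothelial mRNA of a whole piece of fat, not of sorted cells.

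Brown fat is densely supplied with capillaries, which bring oxygen and fatty acids to the heat-producing adipocytes and carry heat away. Endothelial cells hold together through VE-cadherin and claudin junctions and take survival and growth cues through the Tie receptors. Transcription factors of the ETS and SoxF families keep up their gene program. In RNA of a whole tissue, fewer cells of a type and less RNA per cell cannot be told apart, which holds for every value below.

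Library totals were 10.8 to 19.5 M counts (M, mega) in the 5 cotadutide mice and 16.1 to 25.1 M counts in the 4 vehicle mice, a difference with p = 0.127 by exact permutation (two-sided). Levels are in CPM, the counts that a gene has in each 1 M of the library total after scaling. Folds and log2 fold changes are cotadutide over vehicle. Genes were tested by quasi-likelihood in edgeR, with p-values adjusted by Benjamini-Hochberg over all 14747 genes, and a gene is called where the adjusted p is under 0.05.

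Summed endothelial mRNA overlapped between the groups, and few of its genes were called. Summed over the 32 genes it came to 1329, 1322, 1652, 1412 and 1314 CPM in cotadutide mice 1 to 5, against 1315, 1552, 1349 and 1274 CPM in vehicle mice 1 to 4. Their means were 1406 ± 143 CPM for cotadutide (SD, n = 5) and 1373 ± 124 CPM for vehicle (SD, n = 4). By gene, 17 of the 32 log2 fold changes were above 0 and 15 below, with a median of 0.02, beside a median of 0.00315 over all genes tested. The median size of change, without its sign, was 0.18 for the 32 genes on the log2 scale and 0.23 over all genes tested. Of the 32 genes, 31 had an estimated change under 1.5-fold in either direction, the exception being the low Prox1. With cotadutide 2 endothelial genes were called higher, Sox18 and Emcn, and 2 lower, Cd93 and Calcrl, or 12.5% of the 32. Over all genes tested 18.7% were called, 9.31% higher and 9.34% lower. At an unadjusted p under 0.05 there were 8 of the 32, beside 35.7% over all genes tested. DESeq2 called the same 4 genes and limma-voom all of them but Cd93, where 22.1% and 20.3% of all genes tested were called.

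In the mm10 coordinates of the files, Sox18 (ENSMUSG00000046470) lay on the minus strand of chromosome 2 from 181669836 to 181671640. Cd93 (ENSMUSG00000027435) lay on the minus strand of chromosome 2 from 148436640 to 148443563, and Calcrl (ENSMUSG00000059588) on the minus strand of chromosome 2 from 84330626 to 84425411. Emcn (ENSMUSG00000054690) lay on the plus strand of chromosome 3 from 137341067 to 137432185. Promoter sequences of RefSeq (GRCm38.p6, 250 bases before to 50 bases after a start) were found for 16 of the 32 genes. Those of the called genes with an entry, Emcn and Calcrl, are shown beside that of Cldn5, the uncalled gene with 1 promoter entry and the highest level per length, so that a promoter of a gene that rose, of a gene that fell and of an uncalled gene can be compared. Capitals mark matches on either strand to the ETS cores AGGAAG and CCGGAA, to the core ACAATG of SOX factors and to the core AGATAA of GATA factors.
Emcn, chr3:137340828-137341127, plus strand: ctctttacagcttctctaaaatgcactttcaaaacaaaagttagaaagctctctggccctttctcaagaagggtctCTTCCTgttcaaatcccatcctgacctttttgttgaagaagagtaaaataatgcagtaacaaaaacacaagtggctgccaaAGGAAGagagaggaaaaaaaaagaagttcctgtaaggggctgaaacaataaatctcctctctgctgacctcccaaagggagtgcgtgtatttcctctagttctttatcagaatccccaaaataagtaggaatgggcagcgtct
Calcrl, chr2:84425217-84425516, minus strand: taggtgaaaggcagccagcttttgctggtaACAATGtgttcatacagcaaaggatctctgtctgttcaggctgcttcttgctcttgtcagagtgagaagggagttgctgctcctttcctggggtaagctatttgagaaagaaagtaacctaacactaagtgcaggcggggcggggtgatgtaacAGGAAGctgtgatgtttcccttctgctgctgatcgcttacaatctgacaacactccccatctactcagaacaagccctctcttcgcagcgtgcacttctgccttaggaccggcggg
Cldn5, chr16:18776597-18776896, plus strand: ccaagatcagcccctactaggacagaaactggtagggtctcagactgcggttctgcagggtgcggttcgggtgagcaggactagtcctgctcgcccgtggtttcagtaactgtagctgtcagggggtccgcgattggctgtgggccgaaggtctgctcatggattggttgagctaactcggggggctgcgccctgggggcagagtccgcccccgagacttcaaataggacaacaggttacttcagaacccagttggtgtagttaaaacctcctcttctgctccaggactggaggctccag
The Emcn window held AGGAAG on both strands, with first bases at positions -93 and -174 from the start. The Calcrl window held AGGAAG at position -66 and ACAATG at position -220, and the Cldn5 window held none of the motifs. Of 32851 mouse promoters of this length, 35.4% held AGGAAG, 14.9% CCGGAA, 12.6% ACAATG and 11.2% AGATAA. Over the 23 promoters listed for the endothelial genes, 11 held AGGAAG, 1 held CCGGAA, 2 held ACAATG and 3 held AGATAA.

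**Figure D1:**
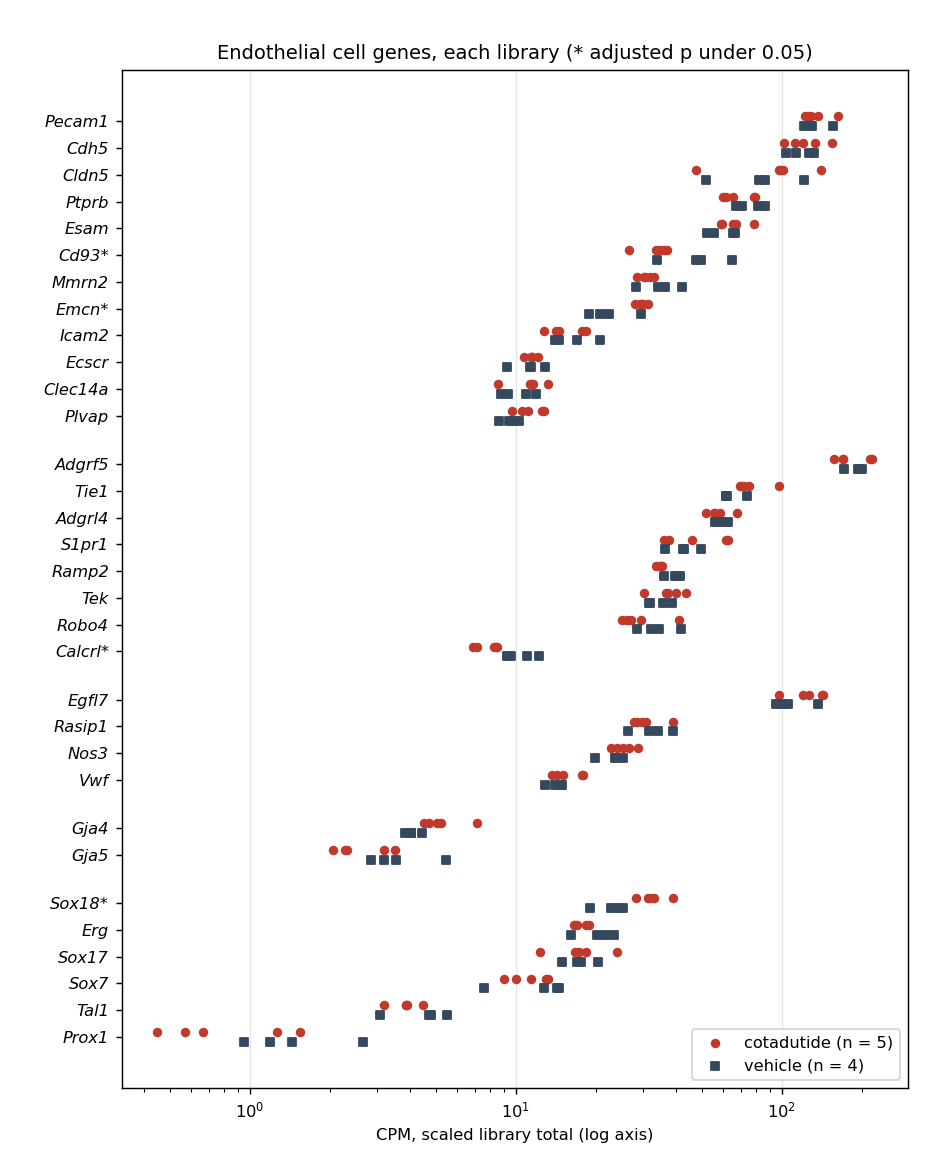
Level of each of the 32 endothelial genes in each library, in CPM on a log axis, grouped by role (surface and junction, receptors, secreted protein, enzyme and scaffold, gap junction, transcription factors). Circles are the 5 cotadutide mice and squares the 4 vehicle mice, and the groups stand apart for 4 of the 32 genes (Sox18, Calcrl, Ramp2 and Gja4).

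The levels of the genes spanned a wide range. Per 1000 bases of merged exon length, Cldn5, a tight junction claudin, was the highest at 68.6 ± 23.2 CPM per kb in cotadutide (SD, n = 5) and 60.4 ± 20.1 CPM per kb in vehicle mice (SD, n = 4). Egfl7, a secreted protein of growing vessels, followed with 35.2 ± 5.19 CPM per kb in cotadutide and 30.5 ± 5.16 CPM per kb in vehicle mice. Cdh5, which encodes VE-cadherin, came next with 29.6 ± 4.84 CPM per kb in cotadutide and 28.3 ± 3.05 CPM per kb in vehicle mice. At the low end stood Vwf, the clotting factor carrier, the arterial connexin Gja5, and Prox1, the lymphatic master factor, at 0.107 ± 0.057 CPM per kb in cotadutide and 0.185 ± 0.0903 CPM per kb in vehicle mice. Of the 31 neighbouring pairs in this order among vehicle mice, 5 were separated in the sense that every library of the upper gene lay above every library of the lower. These 5 steps were Cdh5 over Adgrf5, Esam over Sox18, Sox17 over Gja4, Calcrl over Tal1 and Gja5 over Prox1, and the other neighbours overlapped. Cd93 differed most in place, ranking 23 among cotadutide mice and 15 among vehicle mice.

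Junction and surface genes make up 12 of the 32, and of these 1 was called higher and 1 lower (median log2 fold change 0.05). The general markers of the endothelium overlapped between the groups. Pecam1, the adhesion molecule CD31, stood at 126, 129, 163, 137 and 122 CPM in cotadutide mice 1 to 5, against 129, 156, 129 and 121 CPM in vehicle mice 1 to 4. Its log2 fold change was 0.02, with a 95% interval of -0.22 to 0.25, so a change beyond 1.19-fold in either direction lay outside the interval. Cdh5 stood at 102, 113, 154, 134 and 119.8 CPM in cotadutide mice, against 114, 132, 127 and 104 CPM in vehicle mice. The groups overlapped throughout, and the log2 fold change of Cdh5 was 0.06 (95% interval -0.20 to 0.33). Esam, a cell adhesion molecule of endothelial tight junctions, stood at 58.8, 65.6, 78.3, 67.1 and 59.7 CPM in cotadutide mice, against 55.7, 66.5, 52.4 and 65.6 CPM in vehicle mice. Cldn5 varied widely between mice. Its values were 101, 98.9, 139.9, 47.6 and 97.4 CPM in cotadutide mice 1 to 5, against 86.3, 121, 82.1 and 51.9 CPM in vehicle mice 1 to 4, a coefficient of variation of 33.8% in cotadutide and 33.3% in vehicle mice. Cotadutide mouse 4 and vehicle mouse 4 were the low libraries, and the 95% interval of its log2 fold change ran from -0.45 to 0.82, so a change of up to 1.76-fold was not resolved.

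Emcn, which encodes endomucin, a sialomucin of capillary and venous endothelium, rose. It stood at 29.6, 31.4, 29.3, 30.2 and 28.2 CPM in cotadutide mice 1 to 5, against 20.8, 22.5, 18.8 and 29.5 CPM in vehicle mice 1 to 4. Vehicle mouse 4 lay inside the cotadutide range and the other 3 vehicle mice lay below it. The spread was narrow in cotadutide mice, with a coefficient of variation of 3.99%, and wider in vehicle mice, at 20.4%. The fold was 1.30 (log2 fold change 0.38, SE 0.12, 95% interval 0.12 to 0.63, edgeR adjusted p = 0.0459). The call was near the threshold: leaving out any 1 mouse other than vehicle mouse 4 ended it, with adjusted p up to 0.132, and without vehicle mouse 4 the log2 fold change was 0.52 (edgeR adjusted p = 0.00243).

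Cd93, a C-type lectin receptor of endothelium that is also known from monocytes, fell. It stood at 34.9, 26.5, 36.0, 37.2 and 33.6 CPM in cotadutide mice 1 to 5, against 49.5, 65.1, 47.6 and 34.0 CPM in vehicle mice 1 to 4. Vehicle mouse 4 again lay among the cotadutide values, while vehicle mice 1 to 3 lay above them. Cd93 was 1.46 times lower (log2 fold change -0.55, SE 0.16, 95% interval -0.91 to -0.18, edgeR adjusted p = 0.0429). Without vehicle mouse 4 its log2 fold change was -0.68 (edgeR adjusted p = 0.00429), and leaving out any other mouse ended the call, with adjusted p up to 0.103. Macrophage markers moved with the same groups: 6 of 12 fell and 0 rose, with a summed level of 221 to 464 CPM in cotadutide and 362 to 599.975 CPM in vehicle mice, and their part in the fall of Cd93 was not tested. Multimerin 2, encoded by Mmrn2, is an extracellular ligand of CD93 and of Clec14a, a related lectin. Neither was called, at a log2 fold change of -0.19 for Mmrn2 (95% interval -0.43 to 0.04) and 0.13 for Clec14a (95% interval -0.16 to 0.43). Without vehicle mouse 4 the log2 fold change of Mmrn2 was -0.29 and was called (edgeR adjusted p = 0.0368), in a fit that called 24.9% of all genes tested. The ratio of Cd93 to Clec14a counts was 2.35 to 3.92 in cotadutide libraries and 2.86 to 5.95 in vehicle libraries. The difference in that ratio missed the threshold by exact permutation (two-sided p = 0.0635, or 0.122 adjusted over the 7 ratios tested, which were chosen after the values were seen). The smallest p that this test could give was 0.00794, so a single ratio alone could not pass after adjustment. These ratio tests therefore cannot show that a ratio was unchanged.

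The other surface genes were not called. Plvap, which forms the diaphragms of fenestrated capillaries, had a log2 fold change of 0.25 (95% interval 0.01 to 0.49, edgeR adjusted p = 0.129), with 12.6, 9.68, 10.5, 11.1 and 12.8 CPM in cotadutide mice and 8.67, 9.46, 10.3 and 9.78 CPM in vehicle mice. Ptprb, the phosphatase VE-PTP that restrains Tie2, stood at 61.5, 60.1, 79.5, 78.6 and 65.7 CPM in cotadutide mice, against 70.7, 81.6, 86.8 and 67.2 CPM in vehicle mice, with overlap. Icam2, an adhesion molecule for leukocytes, Ecscr, a sialomucin-like surface protein, and Ptprb had log2 fold changes of -0.10, 0.03 and -0.15, with 95% intervals inside -0.40 to 0.26.

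**Figure D2:**
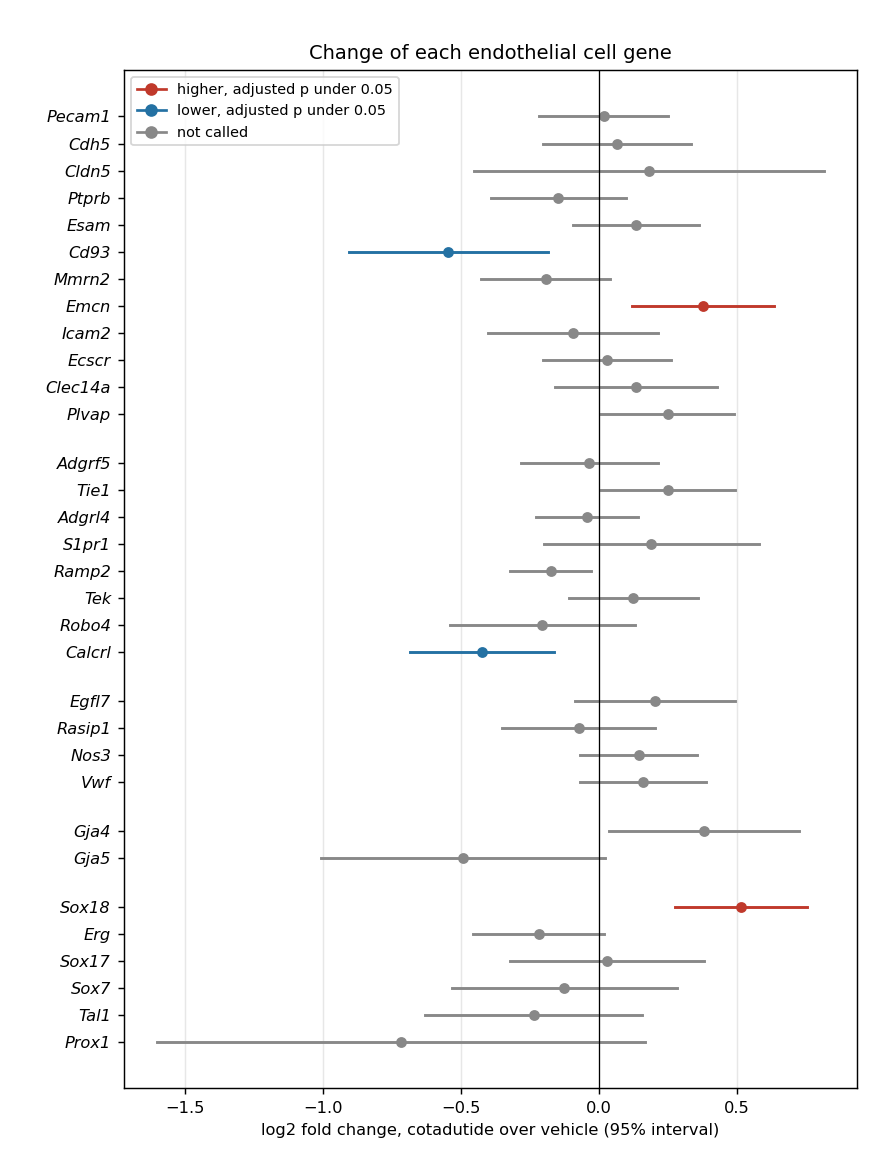
Log2 fold change (cotadutide over vehicle) of the 32 endothelial genes with its 95% interval, in the order of the plot of levels. Sox18 and Emcn lie above 0 and Cd93 and Calcrl below it, and of the 28 uncalled genes 23 have an interval inside 1.5-fold in both directions.

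Of the 8 receptor genes, 0 were called higher and 1 lower (median log2 fold change -0.04), and the lower one belongs to the adrenomedullin receptor. Calcrl, a G protein-coupled receptor that binds adrenomedullin when paired with a RAMP protein, stood at 8.38, 7.12, 6.90, 8.26 and 8.47 CPM in cotadutide mice 1 to 5, against 11.01, 9.25, 12.2 and 9.56 CPM in vehicle mice 1 to 4. All 5 cotadutide mice lay below every vehicle mouse. Calcrl was 1.34 times lower (log2 fold change -0.42, SE 0.12, 95% interval -0.68 to -0.16, edgeR adjusted p = 0.0335). The call held in 4 of the 9 fits that left out 1 mouse, those without cotadutide mouse 1, 4 or 5 or vehicle mouse 4, and the adjusted p reached 0.0995 without the others. Ramp2, the partner that makes Calcrl an adrenomedullin receptor, stood at 33.7, 35.003, 35.6, 34.9 and 35.1 CPM in cotadutide mice, against 40.3, 39.8, 35.9 and 41.4 CPM in vehicle mice. These groups did not overlap either, yet Ramp2 missed the threshold (log2 fold change -0.18, SE 0.07, 95% interval -0.32 to -0.03, edgeR adjusted p = 0.0869). Of all the alternative fits, it passed only with library totals alone as the scale (log2 fold change -0.24, edgeR adjusted p = 0.0356) and with a stricter filter (log2 fold change -0.20, edgeR adjusted p = 0.0463). The median log2 fold change over all genes tested was also lower there, at -0.0655 and -0.0242, against 0.00315. These fits called 2704 and 2786 genes in all. Part of the exons of Ramp2 are shared with those of the neighbour Vps25, so their reads may be mixed. The difference in the ratio of Calcrl to Ramp2 counts did not pass the exact permutation test (p = 0.143, adjusted p = 0.167).

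Of the 4 testable genes for the ligand and the other partners of this receptor, which several cell types express, 1 rose and 2 fell (median log2 fold change -0.44). Adm, which encodes adrenomedullin, was 2.1 times lower at 2.01 ± 0.721 CPM in cotadutide and 4.29 ± 1.41 CPM in vehicle mice (SD, n = 5 and 4; edgeR adjusted p = 0.0302). Ramp1, the partner that turns Calcrl into a receptor for the peptide CGRP, was 2.09 times lower at 11.3 ± 6.03 CPM in cotadutide and 23.4 ± 4.35 CPM in vehicle mice (edgeR adjusted p = 0.0466). Within each group Ramp1 ordered the mice as the mean of the skeletal muscle markers given below did. It ran from 5.19 CPM in cotadutide mouse 3 to 29.2 CPM in vehicle mouse 4, and the part of muscle was not tested. Ramp3, the other adrenomedullin partner, was 1.83-fold higher at 2.88 ± 0.303 CPM in cotadutide and 1.56 ± 0.676 CPM in vehicle mice (edgeR adjusted p = 0.0422). The groups overlapped for Adm and stood apart for both RAMP genes. Ackr3, a scavenger receptor for adrenomedullin and chemokines, was not called (log2 fold change 0.18, 95% interval -0.14 to 0.51), and Adm2, a related peptide gene, had no count in any library.

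**Figure D3:**
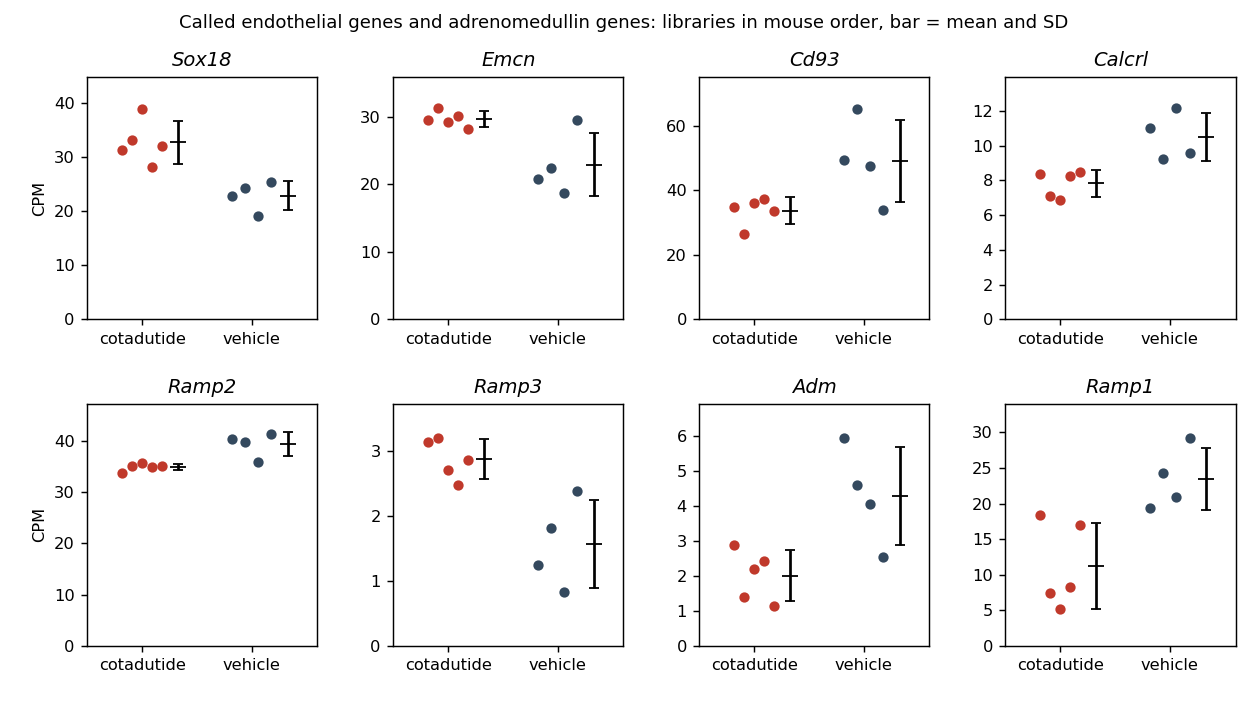
CPM in each library of the 4 called endothelial genes (top row) and of Ramp2, Ramp3, Adm and Ramp1 (bottom row), with cotadutide on the left and vehicle on the right of each panel. Bars are the mean and SD of 5 cotadutide and 4 vehicle mice, and vehicle mouse 4, the rightmost point, lies inside the cotadutide range for Emcn and Cd93.

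The Tie receptors were not called. Tie1, an orphan-like kinase that modulates Tie2, stood at 70.3, 72.1, 97.9, 75.6 and 69.6 CPM in cotadutide mice, against 62.1, 73.9, 61.7 and 61.7 CPM in vehicle mice. Cotadutide mouse 3 and vehicle mouse 2 stood out as the high libraries of their groups, and the log2 fold change was 0.25 (95% interval 0.01 to 0.49, edgeR adjusted p = 0.129). Tek, which encodes Tie2, the receptor of the angiopoietins, had a log2 fold change of 0.12 (95% interval -0.11 to 0.36), and the difference in the ratio of Tek to Tie1 counts did not pass the exact permutation test (p = 0.27, adjusted p = 0.27). Of the 4 testable genes on a list of angiopoietins and related genes, 1 rose and 1 fell (median log2 fold change -0.19). The list includes the angiopoietin-like gene Angptl1, uncalled at a log2 fold change of -0.39 (95% interval -0.72 to -0.05, edgeR adjusted p = 0.0921). Svep1, a matrix protein that binds Tie1, was 1.93-fold higher at 54 ± 9.54 CPM in cotadutide and 28 ± 3.5 CPM in vehicle mice, with no overlap (edgeR adjusted p = 0.0122). Angpt2, the ligand released by activated endothelium, was 2.19 times lower at 1.66 ± 0.595 CPM in cotadutide and 3.58 ± 1.28 CPM in vehicle mice, with overlap (edgeR adjusted p = 0.0303). Angpt1, the stabilising ligand, was uncalled at 11.7 ± 2.02 CPM in cotadutide and 11.7 ± 2.87 CPM in vehicle mice (edgeR adjusted p = 0.984).

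Among the remaining receptors, Adgrf5, an adhesion G protein-coupled receptor, had 169.5, 157, 214, 219 and 169.6 CPM in cotadutide mice, against 171, 201, 196 and 194 CPM in vehicle mice. Its log2 fold change was -0.04 (95% interval -0.28 to 0.21), and that of Adgrl4, an adhesion receptor of angiogenic vessels, was also -0.04 (95% interval -0.23 to 0.14). S1pr1, the sphingosine 1-phosphate receptor that tightens the barrier, was at 36.2, 46.0, 62.8, 61.7 and 37.6 CPM in cotadutide mice, against 43.0, 36.3, 42.7 and 49.7 CPM in vehicle mice. The spread of S1pr1 was wider in cotadutide, with a coefficient of variation of 26.2% in cotadutide and 12.8% in vehicle mice. Its log2 fold change of 0.19 had a 95% interval of -0.20 to 0.58. Of 8 further genes for sphingosine phosphate reception and transport, edgeR called 0, with 2 at an unadjusted p under 0.05, while DESeq2 called 1 and limma-voom 0. Robo4, a guidance receptor that stabilises vessels, had a log2 fold change of -0.21 (95% interval -0.54 to 0.13).

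Of the 4 genes for secreted proteins, enzymes and scaffolds, 0 were called by edgeR, also by DESeq2 and limma-voom, and 0 had an unadjusted p under 0.05. Egfl7 stood at 143, 126, 142, 98.05 and 119.8 CPM in cotadutide mice, against 100.1, 136, 95.4 and 106 CPM in vehicle mice (log2 fold change 0.20, 95% interval -0.09 to 0.49). Its exons overlap those of Agpat2 on the other strand, a gene with 167743 counts in all against 19263 for Egfl7, and the strand setting of the counting is not given in the sources used here. Nos3, the endothelial nitric oxide synthase, had a log2 fold change of 0.14 (95% interval -0.07 to 0.35), with 25.5 ± 2.36 CPM in cotadutide and 23.1 ± 2.32 CPM in vehicle mice. Vwf had a log2 fold change of 0.16 (95% interval -0.07 to 0.39), and Rasip1, a scaffold needed for vessel lumen formation, of -0.07 (95% interval -0.35 to 0.20). Vwf and Pecam1 are also platelet genes, and of 4 testable platelet markers edgeR called 0, with 2 at an unadjusted p under 0.05 and 0 called by DESeq2 or limma-voom.

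Both gap junction genes were low and uncalled, with log2 fold changes of opposite sign. Gja4, connexin 37, stood at 5.04, 7.12, 4.70, 4.51 and 5.24 CPM in cotadutide mice, against 4.04, 4.03, 3.83 and 4.43 CPM in vehicle mice. All cotadutide values lay above the vehicle values, but the log2 fold change of 0.38 missed the threshold (95% interval 0.04 to 0.72, edgeR adjusted p = 0.108). Gja5, connexin 40 of arteries, stood at 3.50, 2.05, 3.20, 2.31 and 2.28 CPM in cotadutide mice, against 3.19, 5.47, 3.53 and 2.86 CPM in vehicle mice, with overlap (log2 fold change -0.49, 95% interval -1.01 to 0.02, edgeR adjusted p = 0.156). The ratio of Gja4 to Gja5 counts was 1.44 to 3.47 in cotadutide and 0.737 to 1.55 in vehicle libraries (exact permutation p = 0.0476, adjusted p = 0.122). This pair, like the other ratios, was chosen after the values were seen. The ratio of Emcn to Pecam1 counts, also among the 7, gave an exact permutation p of 0.0873 (adjusted p = 0.122). In all, the groups stood apart for 4 of the 32 genes (Sox18, Calcrl, Ramp2 and Gja4), or 12.5%, beside 15.8% over all genes tested.

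Of the 6 transcription factors, 1 was called higher and 0 lower (median log2 fold change -0.17). Sox18, a SoxF factor of arterial and lymphatic development, stood at 31.3, 33.02, 38.9, 28.2 and 31.98 CPM in cotadutide mice 1 to 5, against 22.8, 24.2, 19.0 and 25.3 CPM in vehicle mice 1 to 4. Every cotadutide mouse lay above every vehicle mouse, and the fold was 1.43 (log2 fold change 0.52, SE 0.11, 95% interval 0.28 to 0.75, edgeR adjusted p = 0.0176). It was the call that held most often: in 6 of the 9 fits without 1 mouse, and lost without vehicle mouse 1, 2 or 3, where the adjusted p reached 0.0573 at most. Its SoxF relatives were not called, with log2 fold changes of 0.03 for Sox17 (95% interval -0.32 to 0.38) and -0.13 for Sox7 (95% interval -0.53 to 0.28). The ratio of Sox18 to Sox17 counts gave an exact permutation p of 0.0635 and that of Sox18 to Sox7 a p of 0.0794 (adjusted p = 0.122 for each). With a smallest possible p of 0.00794 before adjustment, these tests could not settle whether Sox18 differed from its relatives. Erg, the ETS factor of endothelial identity, was at 16.7, 16.5, 18.4, 18.8 and 17.0 CPM in cotadutide mice, against 20.2, 23.4, 21.6 and 16.1 CPM in vehicle mice. Only vehicle mouse 4 lay below the cotadutide values of Erg. Without that mouse the log2 fold change of Erg was -0.31 and was called (edgeR adjusted p = 0.0267), in a fit that called 24.9% of all genes tested. With that mouse it was -0.22 (edgeR adjusted p = 0.171). Tal1, which also drives blood formation, had a log2 fold change of -0.24 (95% interval -0.63 to 0.16). Prox1 stood at 1.54, 0.449, 0.569, 1.27 and 0.666 CPM in cotadutide mice, against 1.44, 0.946, 2.65 and 1.19 CPM in vehicle mice, with overlap. It had 202 counts over all 9 libraries and as few as 7 in a library, and its log2 fold change of -0.72 had a 95% interval of -1.60 to 0.17. Beside it, edgeR, DESeq2 and limma-voom each called 0 of 5 testable lymphatic markers, with 1 at an unadjusted p under 0.05. Their median log2 fold change was -0.51, at a summed level of 11.4 to 21.2 CPM in cotadutide and 18.1 to 26.4 CPM in vehicle mice. The marker Ccl21a had no count in any library.

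Some mice were high or low for many endothelial genes. Cotadutide mouse 3 had the highest value of its group for 16 of the 32 genes and the highest sum, at 1652 CPM. It also had 11.03 CPM of the B cell marker Cd79a, against 0.666 to 1.10 CPM in the other cotadutide mice. The part of lymphoid cells in the values of that mouse was not tested. Vehicle mouse 2 had the highest value of its group for 18 of the 32 genes, vehicle mouse 4 the lowest for 14 and vehicle mouse 3 the lowest for 12. Skeletal muscle mRNA also differed between mice. The mean log2 CPM of 15 muscle markers was lowest in cotadutide mouse 3, at 8.01 within a cotadutide range up to 10.01, and highest in vehicle mouse 4, at 11.25 within a vehicle range from 10.33. It was 10.6 in vehicle mouse 2, the next highest of its group, and 10.41 in vehicle mouse 3. All 15 markers were tested, 8 of the 15 fell and 0 rose, and their summed level was 5546 to 20842 CPM in cotadutide and 24180 to 50872 CPM in vehicle mice, so muscle content and group cannot be told apart. With that mean as a covariate edgeR called 0 genes in all, so the calls of the 4 endothelial genes ended too (2092 at an unadjusted p under 0.05). Their log2 fold changes in that fit kept their signs, at 0.39 for Sox18, 0.51 for Emcn, -0.65 for Cd93 and -0.31 for Calcrl, against 0.52, 0.38, -0.55 and -0.42 without the covariate. Without cotadutide mouse 3 and vehicle mouse 4 together, an alternative added once the values were known, 2 of the 32 genes were called higher and 5 lower, beside 12.7% higher and 9.55% lower over all genes tested. The 5 were Cd93, Calcrl, Erg, Mmrn2 and Robo4, and the 2 were Sox18 and Emcn (edgeR adjusted p = 0.0103 and 0.00496). Both mice left out were extreme in the values described here, so the calls of this fit are no independent support.

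**Figure D4:**
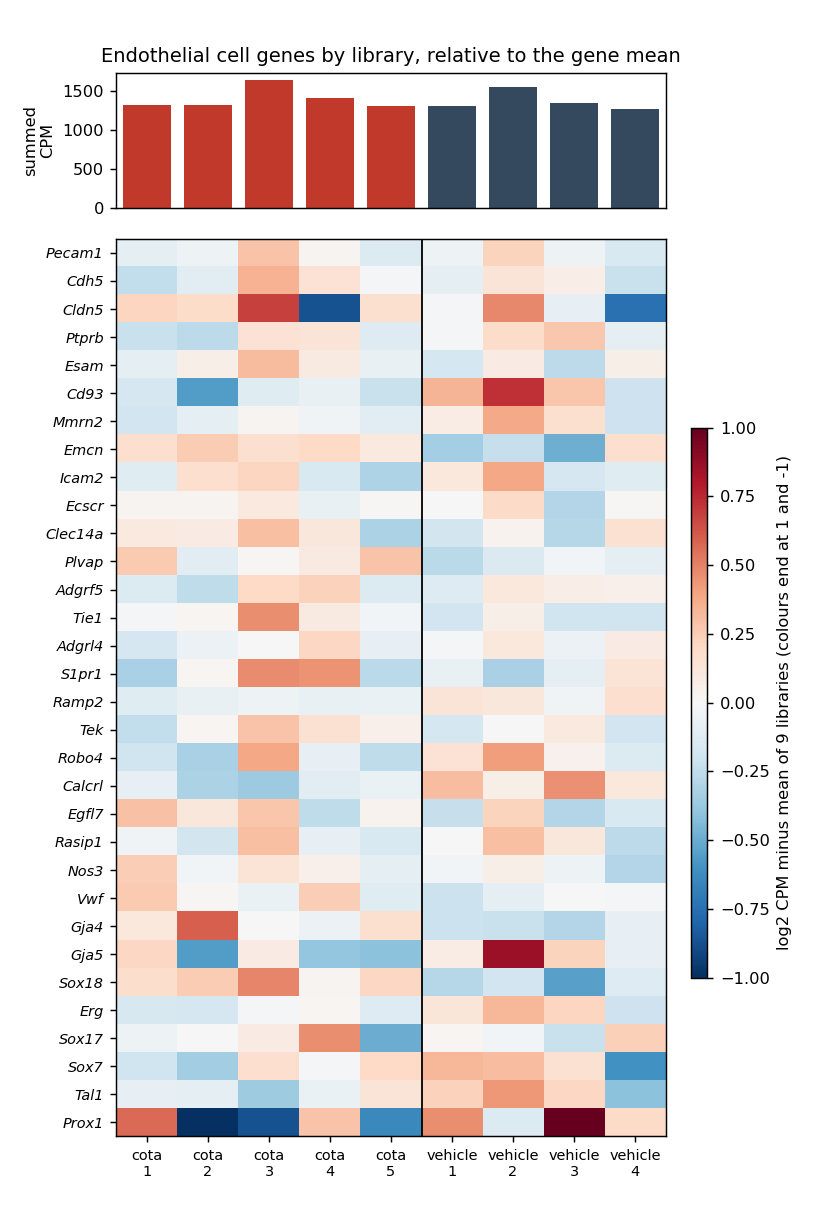
Log2 CPM of each endothelial gene in each library minus its mean over the 9 libraries (colour, ending at 1 and -1), with the summed CPM of the 32 genes above. The high sums of cotadutide mouse 3 (1652 CPM) and vehicle mouse 2 (1552 CPM) stand out as the tallest bars of their groups.

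Of 29 further genes common in endothelial cells, 1 rose and 8 fell (median log2 fold change -0.14). Over all genes tested 9.31% were called higher and 9.34% lower. The summed level of this list was 1555 to 1858 CPM in cotadutide and 1696 to 2267 CPM in vehicle mice, with overlap. The genes that fell were Nid1, Nid2, Col4a1, Col4a2 and Lamb2, basement membrane genes that other cells of fat also express, and Cd34, Stab1 and Ehd4. Nid1, which encodes nidogen, was 1.92 times lower at 70.0 ± 15.6 CPM in cotadutide and 134 ± 38.9 CPM in vehicle mice (edgeR adjusted p = 0.0214). Ehd4, an endocytic recycling protein, was 1.53 times lower (edgeR adjusted p = 0.025), and Stab1, a scavenger receptor that macrophages share, was 1.34 times lower (edgeR adjusted p = 0.0276). Tspan18, a tetraspanin, was the gene that rose, 1.54-fold higher at 141 ± 16 CPM in cotadutide and 91.7 ± 12.5 CPM in vehicle mice, with no overlap (edgeR adjusted p = 0.0147). Cd34 is also on the list of 10 fibroblast markers and is the 1 of them that fell, while 0 rose (median log2 fold change -0.66). Of these 10, 5 had an unadjusted p under 0.05, and DESeq2 and limma-voom each called 3. Their summed level was 702 to 1490.2 CPM in cotadutide and 1151 to 1813 CPM in vehicle mice. The part of fibroblast, muscle and macrophage markers in these results was not tested.

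Of 10 VEGF ligands and receptors 0 rose and 1 fell (median log2 fold change 0.09). Pgf, placental growth factor, was 4.04 times lower at 0.529 ± 0.214 CPM in cotadutide and 2.18 ± 1.26 CPM in vehicle mice (edgeR adjusted p = 0.0184), while Vegfa was uncalled at 333 ± 28.3 CPM in cotadutide and 314 ± 19.5 CPM in vehicle mice. Of 10 Notch genes 1 rose and 0 fell (median log2 fold change -0.12). Heyl, a Notch target of mural and endothelial cells, was 2.22-fold higher (edgeR adjusted p = 0.0216), while the tip cell ligand Dll4 was uncalled at a log2 fold change of -0.59 (95% interval -1.04 to -0.14, edgeR adjusted p = 0.0653). Of 8 genes of endothelial BMP signalling 1 rose and 1 fell (median log2 fold change 0.17). Id1, a BMP target, was 1.64-fold higher at 89.8 ± 13.3 CPM in cotadutide and 54.8 ± 8.46 CPM in vehicle mice (edgeR adjusted p = 0.0147), and the receptor Bmpr2 was 1.23 times lower (edgeR adjusted p = 0.0223). Of 11 arterial and venous genes 1 rose and 2 fell (median log2 fold change 0.02). The venous receptor Ephb4 was 1.24-fold higher (edgeR adjusted p = 0.0231). Apln, which encodes the tip cell peptide apelin, was 2.19 times lower at 3.37 ± 0.825 CPM in cotadutide and 7.42 ± 3.1 CPM in vehicle mice (edgeR adjusted p = 0.024), and the chemokine receptor Cxcr4 was 1.73 times lower (edgeR adjusted p = 0.0495).

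Of 16 further transcription factors of endothelial cells 2 rose, Tcf15 and Gata2, and 3 fell (median log2 fold change -0.04). Tcf15, which with Meox2 acts in capillaries that take up fatty acids, was 1.54-fold higher at 33.5 ± 5.88 CPM in cotadutide and 21.7 ± 5.38 CPM in vehicle mice (edgeR adjusted p = 0.0341). Mef2c, which is also a striated muscle factor, was 2.5 times lower (edgeR adjusted p = 0.0156), Ets2 was 1.41 times lower (edgeR adjusted p = 0.0336) and Nfatc1 was 1.22 times lower (edgeR adjusted p = 0.0378). Klf2, the shear stress factor, was uncalled at 75.8 ± 12.2 CPM in cotadutide and 78.5 ± 17.2 CPM in vehicle mice. Of 12 genes of capillary lipid transport 3 rose and 1 fell (median log2 fold change 0.02). Fabp4, Lpl and Aqp7 rose, all of them abundant in adipocytes, and Cav2, a caveolin, was 1.41 times lower (edgeR adjusted p = 0.0385). Of 10 adipocyte markers 4 rose and 0 fell, with a summed level of 27837 to 34432 CPM in cotadutide and 21671 to 25579 CPM in vehicle mice, and their part in these results was not tested. The leukocyte adhesion molecule Vcam1 was uncalled at 9.25 ± 2.85 CPM in cotadutide and 12.1 ± 2.16 CPM in vehicle mice.

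Mural cells, which wrap the endothelium, gave 1 gene higher and 1 lower of 12 markers (median log2 fold change -0.05), with a summed level of 831 to 1110 CPM in cotadutide and 1310 to 1682 CPM in vehicle mice. The list holds desmin, encoded by Des, which skeletal muscle also makes. Cnn1, a smooth muscle calponin, was 1.97-fold higher (edgeR adjusted p = 0.024), and Abcc9, a pericyte potassium channel subunit, was 1.35 times lower at 39.2 ± 5.04 CPM in cotadutide and 53.1 ± 7.14 CPM in vehicle mice (edgeR adjusted p = 0.0277). Rgs5, a pericyte marker, was uncalled at 299 ± 40.8 CPM in cotadutide and 352 ± 62.5 CPM in vehicle mice. Of the testable erythroid, Schwann, T and NK, and B cell markers edgeR called 0, with 1, 0, 0 and 1 at an unadjusted p under 0.05, while DESeq2 called 1 T and NK cell marker and limma-voom 0 of all.

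**Figure D5:**
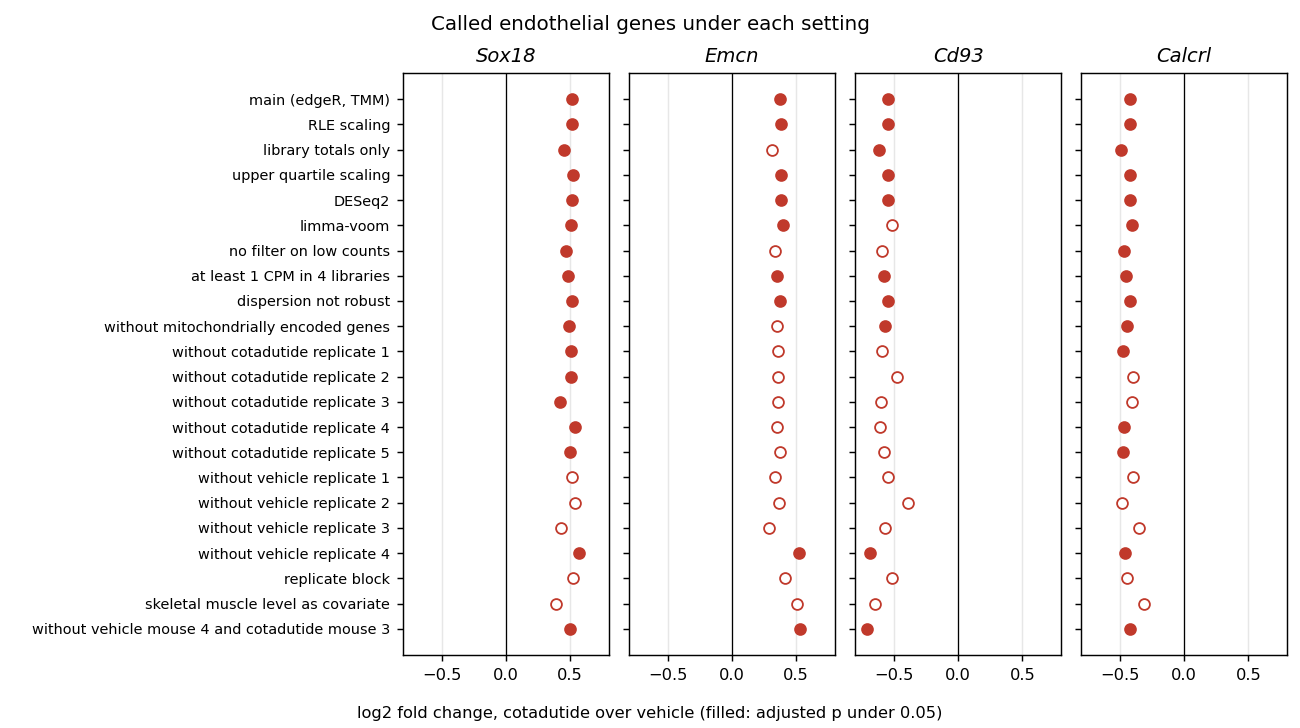
Log2 fold change (cotadutide over vehicle) of Sox18, Emcn, Cd93 and Calcrl under the edgeR fit and each alternative, with filled points where the adjusted p is under 0.05. Every point keeps its sign, from 0.39 to 0.57 for Sox18, 0.29 to 0.53 for Emcn, -0.71 to -0.39 for Cd93 and -0.49 to -0.31 for Calcrl. The fits share all or most of their libraries, so the kept signs are no independent support.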

How the data were processed

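RNA of brown fat was measured in 9 libraries, 1 per mouse, 5 cotadutide and 4 vehicle, grouped by the labels. The authors deposited raw counts of reads per Ensembl gene. Per the submitters' processing notes, STAR 2.5.2b and featureCounts (Subread 1.5.2) were used with the mm10 build, beside Trimmomatic 0.36 and bcl2fastq 2.17. Settings, strand choice and annotation release: not given in the sources used here. Of 49315 identifiers 48970 were matched to a symbol. The endothelial genes and all gene lists were chosen with earlier results of these data known.

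Genes were filtered with filterByExpr, scaled by TMM (factors 0.915 to 1.06) and tested with edgeR 4.0.16 (glmQLFit, robust, glmQLFTest) in R 4.3.3, group as the only term. Intervals are the log2 fold change ± the t quantile times the SE. DESeq2 1.42.0, limma 3.58.1 (voom), other scalings and filters, leaving out each mouse, a mouse number block and a muscle covariate were alternatives. Exact permutation tests used all 126 splits, so their p could not fall below 0.00794. The text names all 32 endothelial genes (library by library those called and the 6 most abundant uncalled). From each other list it gives values for at most 4 called genes by adjusted p and at most the 2 most abundant uncalled. Only part of the genes that this rule admits is named, and the rule did not settle which. Genes named without values, and the other endothelial genes given library by library, were added after their values were seen. No library repeated another within counting noise. Fits were tested on simulated data. Exons of 8 of the 32 genes (Ecscr, Egfl7, Gja5, Nos3, Prox1, Ramp2, Rasip1 and Sox17) overlap those of other genes, which makes their counts less certain. The list of endothelial activation genes is not reported here as a whole.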

Additional observations from a re-analysis of the deposited data

Results flagged for a closer look

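A gap of the highest or lowest library to its nearest neighbour, as a share of the group's range, was compared with Dixon's 95% critical value in each group of the 32 endothelial genes. It was exceeded in 5 of 64 groups, and chance exceeds it in about 1 of 20. Cotadutide mouse 3 was the high library for Tie1 (97.89 CPM, next 75.59), Robo4 (40.98 CPM, next 29.51) and Rasip1 (38.99 CPM, next 30.86). Vehicle mouse 2 was the high library for Tie1 (73.9 CPM, next 62.14). Cotadutide mouse 2 was the high library for Gja4 (7.116 CPM, next 5.235).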

How the results depend on the processing

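Of all genes tested, 1373 were called higher and 1378 lower in the edgeR fit. Without any filter on low counts 900 were called higher. With the mouse number as a replicate block 516 were called higher and 768 lower, and 0 of the 32 endothelial genes in either direction. At an unadjusted p under 0.05 that fit had 4 endothelial genes, beside 4674 genes in all. The labels give the numbers as names of the mice and no other meaning. The deviations of same-numbered mice correlated at -0.04 to 0.14, and 1 of 4 mice of each group correlated best with its own number. So few pairs cannot decide whether the numbers stand for a shared batch. With the muscle marker level as a covariate edgeR called 0 genes higher and 0 lower (2092 at an unadjusted p under 0.05, DESeq2 and limma-voom not run with it). Of the 32 endothelial genes it called 0, with 8 at an unadjusted p under 0.05. Their median log2 fold change was -0.18 in that fit, beside 0.0097 over all genes tested, and 0.02 without the covariate.

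Endothelial genes called higher were 1 with library totals only, without a filter and without mitochondrially encoded genes, against 2. These fits called 2704, 2164 and 2709 genes in all, against 2751. Endothelial genes called lower were 1 by limma-voom and without a filter, and 5 without vehicle mouse 4 and cotadutide mouse 3. In all, limma-voom called 2990 genes and the fit without these mice 3306. Leaving out 1 mouse at a time gave 0 to 2 higher and 0 to 4 lower endothelial genes, and 42 to 2116 higher and 92 to 1724 lower genes in all. The endothelial counts were 0 in both directions without vehicle mouse 1, 2 or 3, where 139, 147 and 738 genes were called in all. At an unadjusted p under 0.05 these fits had 4, 6 and 6 endothelial genes, beside 4010, 4359 and 4440 genes in all. Without vehicle mouse 4 the endothelial counts were 2 higher and 4 lower, where 3704 genes, or 24.9% of all genes tested, were called. Without cotadutide mouse 2 or 3 the endothelial counts were 1 higher and 0 lower, beside 814 and 1364 genes in all. Without cotadutide mouse 1, 4 or 5 they were 1 and 1, beside 2839, 2160 and 2398 genes in all. No called endothelial gene changed sign in any fit. These genes were picked by their call and the fits share most libraries, so this is no independent support.

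Some uncalled genes changed sign. In the edgeR fit their log2 fold changes ran from -0.10 for Icam2 to 0.25 for Tie1. The values of changed sign were as follows. With library totals only they were -0.0519 for Pecam1, -0.00452 for Cdh5, -0.0398 for Ecscr and -0.0337 for Sox17. Without a filter they were -0.0306 for Pecam1, -0.0179 for Ecscr and -0.014 for Sox17. With at least 1 CPM in 4 libraries they were -0.0136 for Pecam1, -0.00179 for Ecscr, and without mitochondrially encoded genes -0.00881 for Pecam1. With the muscle covariate they were -0.236 for Pecam1, -0.247 for Cdh5, -0.0379 for Esam, -0.267 for Cldn5, -0.13 for Tek, -0.0292 for Tie1, -0.182 for S1pr1 and -0.0444 for Sox17. Without vehicle mouse 4 and cotadutide mouse 3 they were -0.103 for Pecam1, -0.0828 for Cdh5 and -0.163 for Cldn5. Leaving out 1 mouse gave ranges of -0.0852 to 0.0931 for Pecam1, -0.0509 to 0.112 for Cdh5, -0.0136 to 0.395 for Cldn5, -0.186 to 0.026 for Icam2, -0.0595 to 0.0965 for Ecscr, -0.125 to 0.0153 for Adgrf5, -0.192 to 0.014 for Rasip1, -0.128 to 0.113 for Sox17. The causes were not tested. Depth was lowest for Prox1, with as few as 7 counts in a library.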
